A study of Mus musculus with 9 samples.

Results

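The major urinary protein (Mup) family was examined in the liver of 9 mice. The 8 members, Mup1, Mup2, Mup3, Mup7, Mup10, Mup17, Mup20 and Mup21, were found by symbol among the 55335 genes of the table, and all 8 passed the filter of a mean FPKM of at least 1. FPKM counts fragments per kilobase of gene and per library size, so it can be compared between genes. No measured value of these mice entered the choice of the members in itself, although earlier results of these data were known when they were listed.

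Liver RNA was sequenced from 3 mice conceived naturally (NC), 3 from in vitro fertilization (IVF) and 3 from transfer of frozen and thawed embryos (FET). All 9 mice were of the B6D2F2 strain, were 20 weeks old and were fasted for 4 h, and according to the methods they were chow-fed males. IVF and FET embryos were made by fertilization in a dish and grew in pseudopregnant ICR females after transfer, and FET embryos were also frozen and thawed, whereas NC mice were conceived and carried without transfer. Transfer and the foster mother thus cannot be told apart from fertilization in a dish in any comparison with NC mice. The mice come from a cross between hybrids of C57BL/6 and DBA/2, so each may have inherited a different combination of these parental chromosomes, and the genotype at the Mup genes was not measured here.

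Mups are small secreted proteins of the lipocalin family, which carry hydrophobic molecules in a barrel-shaped pocket. Hepatocytes of adult male mice make large amounts of them, and the proteins pass through the blood into urine, where they hold volatile pheromones and act as scent signals themselves. Their transcription in liver is known to depend on the male pattern of growth hormone pulses acting through STAT5b, with thyroid hormone and glucocorticoid among the further inputs. Mup20, also called darcin, is the member that attracts females. Mup1 has also been studied as a circulating signal in glucose metabolism.

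The members lie in 1 cluster. In the GENCODE vM21 annotation of GRCm38, the 22 protein-coding Mup genes span chr4:59956804-62150863, which is 2194 kb, and all 8 members are on the minus strand. Mup7 is at chr4:60066469-60070475, Mup2 at chr4:60135932-60154289, Mup1 at chr4:60498012-60501960 and Mup10 at chr4:60578260-60582199. Mup17 is at chr4:61591929-61595871, Mup20 at chr4:62050234-62054158, Mup3 at chr4:62083476-62087342 and Mup21 at chr4:62147932-62150863. The annotation also holds 27 Mup pseudogenes. The genome build of the deposited table is not given in the sources used here, so these positions are those of the annotation.

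How far the copies can be told apart decides what a single member's FPKM can mean. The same 60-base stretch of the third exon, within the coding sequence, is shown for the distinct versions among the members, read on the minus strand of GRCm38. Capitals mark the bases that differ from Mup17.
Mup17, chr4:61594352-61594411: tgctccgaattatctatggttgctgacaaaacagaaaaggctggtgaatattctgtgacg
Mup1, chr4:60500440-60500499: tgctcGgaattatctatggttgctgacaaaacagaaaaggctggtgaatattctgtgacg
Mup20, chr4:62052637-62052696: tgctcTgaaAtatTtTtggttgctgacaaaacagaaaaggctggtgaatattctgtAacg
Mup21, chr4:62149355-62149414: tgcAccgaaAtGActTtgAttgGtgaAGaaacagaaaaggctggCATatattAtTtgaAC
Mup3, chr4:62085960-62086019: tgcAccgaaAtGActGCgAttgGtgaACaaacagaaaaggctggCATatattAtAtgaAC

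Mup7 and Mup10 carry exactly the stretch of Mup17, and Mup2 carries that of Mup1, so these 5 members show 2 versions that differ at 1 base. Mup20 differed from Mup17 at 5 positions, Mup21 at 16 and Mup3 at 17. Over the whole coding sequence, Mup1, Mup2, Mup7, Mup10 and Mup17 were between 98.7% and 99.4% identical to each other. Mup20 was between 90.1% and 91.0% identical to those 5 members. Mup3 and Mup21 were 94.7% identical to each other, and Mup3 was between 82.6% and 83.5% identical to the 5 near-identical members.

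The near-identical members therefore hold little sequence of their own. For each Mup transcript, the share of windows of 100 bases that occur in the transcripts of no other gene was computed. It was 97.1% for Mup3, 95.5% for Mup21, 61.2% for Mup20 and 40.6% for Mup17. It was 14.6% for Mup10, 12.9% for Mup7, 12.8% for Mup1 and 2.7% for Mup2. With windows of 50 bases the values were 84.4% for Mup3 and 0.0% for Mup2, and a window could be shared by up to 19 genes. How the authors treated fragments that fit several genes is not given in the sources used here, so the FPKM of Mup1, Mup2, Mup7, Mup10 and Mup17 taken singly are uncertain. Mup3 and Mup21, and to a lesser degree Mup20, rest on sequence of their own.

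**Figure D1:**
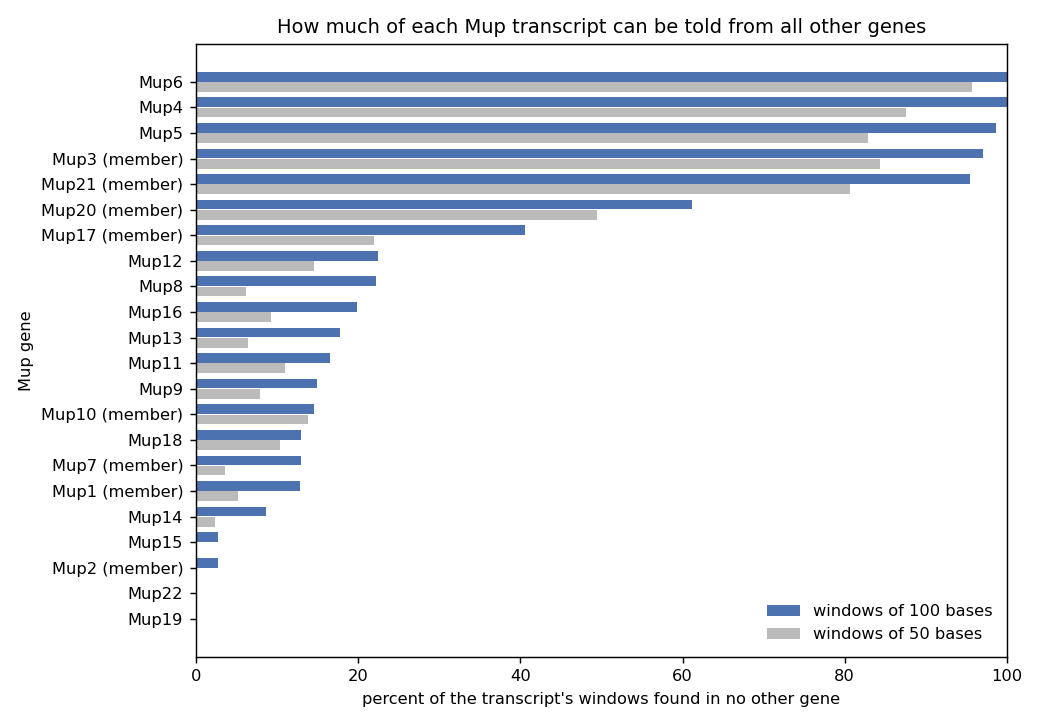
The share of each Mup transcript's windows (horizontal axis, in percent) that occur in no other gene is drawn for the 22 protein-coding Mup genes (vertical axis), with blue bars for windows of 100 bases and grey bars for windows of 50 bases. Among the members, Mup3 and Mup21 exceed 95% with 100 bases, whereas Mup10, Mup7, Mup1 and Mup2 lie at or below 14.6%.

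The libraries differed in ways that touch every member. Nuclear protein-coding genes took between 4.36% (IVF mouse 2) and 29.3% (IVF mouse 4) of the summed FPKM, and 3 abundant non-coding RNA entries took between 3.49% (NC mouse 5) and 61.9% (IVF mouse 2). The depth was estimated from the spacing of low FPKM values, which 1 fragment sets. It was between 2020000 and 2920000 fragments in FET mice, below each of the other mice at 3880000 to 13330000. The sheet numbers in the labels, which are not explained there, are 67 for NC mouse 1 and 71 to 76 for IVF and FET mice, and NC mice 5 and 6 carry much higher ones. No library looked like a copy of another, since the share of identical values was 0.0% in every pair of mice. Hepatocyte markers (Alb, Apoa1, Ttr, Serpina1a, Tat and Cyp2e1) were measured in every mouse, with a summed FPKM of 3213 to 29673, which fits the labelled tissue. In bulk liver, fewer cells of a type and less RNA per cell cannot be told apart.

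Mup3 was the most abundant member in 8 of 9 mice and one of the most abundant liver mRNAs. Its FPKM was 879.6, 2745 and 3054 in NC mice 1, 5 and 6. It was 387.8, 1227 and 1402 in IVF mice 2, 3 and 4, and 741.7, 1172 and 493.1 in FET mice 2, 3 and 4. NC mice 5 and 6 stood above all other mice, while NC mouse 1 lay inside the range of both other groups. Among protein-coding genes ordered by FPKM, Mup3 took rank 8 to 18.

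Mup20 and Mup17 followed, with mean FPKM over all mice of 348.6 and 349.7 beside 1345 for Mup3. The FPKM of Mup20 was 167.2, 524.2 and 301.3 in NC mice, 119.0, 650.2 and 163.9 in IVF mice and 483.5, 523.5 and 204.6 in FET mice, and the 3 groups overlapped widely. Mup17, the highest of the near-identical copies, had an FPKM of 249.1, 151.6 and 380.8 in NC mice and 89.4, 90.4 and 161.2 in IVF mice. In FET mice it was 116.8, 1461 and 447.1, so 2 FET mice were above every NC and IVF mouse and the third was below every NC mouse. In FET mouse 3 Mup17 exceeded Mup3, the only mouse where another member was ahead of it.

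Mup21, the closest relative of Mup3, was lower. Its FPKM was 88.5, 100.6 and 246.6 in NC mice, 65.8, 107.8 and 323.9 in IVF mice, and 84.9, 183.3 and 105.9 in FET mice. The groups overlapped, with the highest value in IVF mouse 4 and the lowest in IVF mouse 2.

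The 4 other members are near-identical copies and were low. Mup10 had an FPKM of 86.5, 40.4 and 56.1 in NC mice, 9.66, 35.2 and 0.482 in IVF mice and 23.9, 70.2 and 29.8 in FET mice. Every IVF mouse was thus below every NC mouse, and the value of IVF mouse 4 corresponds to about 2 fragments at the estimated depth. Mup7 ranged from 15.3 (IVF mouse 4) to 70.8 (IVF mouse 3). Mup1 ranged from 3.80 (NC mouse 5) to 40.9 (IVF mouse 4). Mup2 ranged from 0.723 (FET mouse 2), about 1 fragment, to 28.5 (NC mouse 6), and the groups overlapped for each of these 3 genes.

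**Figure D2:**
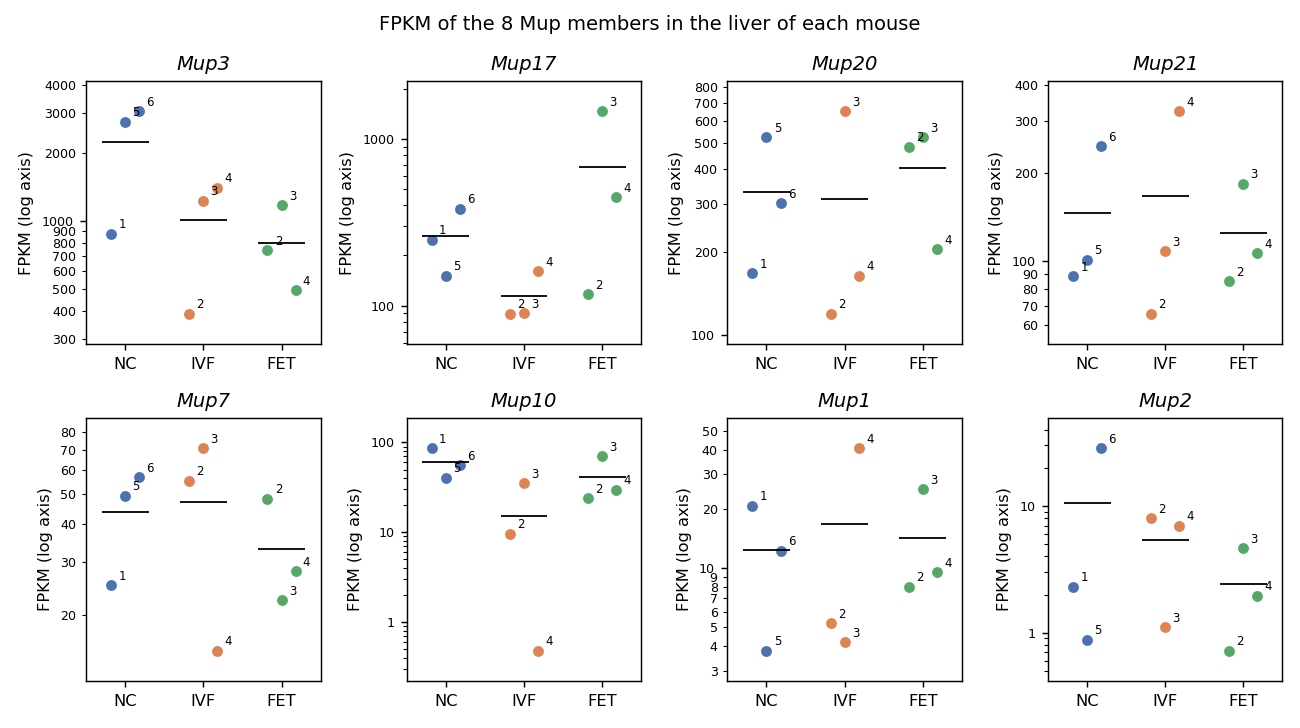
FPKM of each member (vertical axis, log scale, with its own range in each panel) is plotted for each mouse of the NC, IVF and FET groups, with the mouse number beside each point and the group mean as a line. Mup3 is highest in NC mice 5 and 6 (2745 and 3054), Mup17 in FET mouse 3 (1461), and in Mup10 the 3 IVF mice lie below the 3 NC mice.

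The members differed in how widely they varied over the 9 mice. From the lowest to the highest mouse of any group, Mup7 spanned 4.62-fold, Mup21 4.93-fold, Mup20 5.47-fold and Mup3 7.87-fold. Mup1 spanned 10.8-fold, Mup17 16.3-fold, Mup2 39.5-fold and Mup10 179-fold. The members with sequence of their own were thus among those that varied least, although Mup7, with little such sequence, varied least of all.

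In order of group means, Mup3 came first in each group, at 2226 ± 1176 in NC mice, 1006 ± 542 in IVF mice and 802 ± 344 in FET mice (FPKM, SD, n = 3). Mup20 came next in NC mice (331 ± 180) and in IVF mice (311 ± 295), and it was at 404 ± 174 in FET mice. Mup17 was at 261 ± 115 in NC mice and 114 ± 41.1 in IVF mice. It came next to Mup3 in FET mice (675 ± 700), where its SD exceeded its mean. The ranges of Mup20, Mup17 and Mup21 overlapped within every group, except those of Mup20 and Mup21 in FET mice, so the order of these neighbours mostly does not exceed their spread.

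None of the 8 members changed in any comparison by limma with Benjamini-Hochberg adjustment over all 6755 genes tested. Among all genes tested, 0.237% were called in FET against NC mice, 0.0592% in IVF against NC mice and 0.0888% in FET against IVF mice, so few genes of any kind passed. At an unadjusted p under 0.05, 0 of 8 members passed in FET against NC mice, 1 in IVF against NC mice and 1 in FET against IVF mice, beside 12.0%, 4.07% and 4.01% of all genes. The fold changes below are on the log2(FPKM + 1) scale.

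In FET against NC mice, which differ in every step of the procedure, Mup3 had a log2 fold change of -1.37 (SE 0.972, limma adjusted p = 0.602). The 95% confidence interval reached from -3.33 to 0.59. Without NC mice 5 and 6, which leaves NC mouse 1 alone with a spread taken from the other groups, the value was -0.22. Mup17 had a value of 0.80 with an interval of -1.41 to 3.02, and without FET mouse 3 it was -0.09. The other 6 members lay between -0.89 (Mup2) and 0.32 (Mup20), with adjusted p of 0.695 or more by limma. Of the 8 members, 5 had a negative value, beside 74.3% of all genes tested, and their median was -0.27, beside -0.46 for all genes. No member was lower or higher without overlap, which 17.1% and 1.98% of all genes were.

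In IVF against NC mice, which differ in fertilization and transfer, Mup10 was furthest from 0, at -2.83 (SE 1.04, interval -4.93 to -0.74). Its unadjusted limma p was 0.00913 and the adjusted p was 0.69, so it did not pass, and without IVF mouse 4 the value was -1.59. Of the 8 members, 1, Mup10, was lower without overlap and 0 were higher, beside 5.46% and 0.770% of all genes (6.23% in all). As a percentage of protein-coding FPKM, Mup10 was at 0.0322% in IVF mouse 3 and 0.0292% in NC mouse 5, so the groups overlapped on that scale. Mup3 was at -1.15, with an interval of -3.11 to 0.80, and with NC mouse 1 as the only NC mouse at -0.0090. Mup17 was at -1.15, and the other 5 members lay between -0.35 (Mup20) and 0.02 (Mup21). Of the 8 members, 7 had a negative value, beside 68.8% of all genes, with a median of -0.22, beside -0.25.

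In FET against IVF mice, which share fertilization and transfer and differ in freezing and thawing, Mup10 was at 2.19 (SE 1.04, interval 0.10 to 4.29). Its unadjusted limma p was 0.0406 and the adjusted p was 1, so it did not pass. Without IVF mouse 4 this was 0.95. Mup17 was at 1.95, with an interval of -0.27 to 4.16, and without FET mouse 3 it was 1.06. Mup3 was at -0.21 with an interval of -2.17 to 1.75. Of the 8 members, 4 had a negative value, beside 65.4% of all genes, with a median of 0.07, beside -0.20. No member was lower or higher without overlap, which 2.56% and 1.27% of all genes were. The comparisons share groups, so their values are not independent of each other. With intervals this wide, a change of Mup3 by a log2 value of 1 in either direction lay inside the interval for FET against IVF mice.

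**Figure D3:**
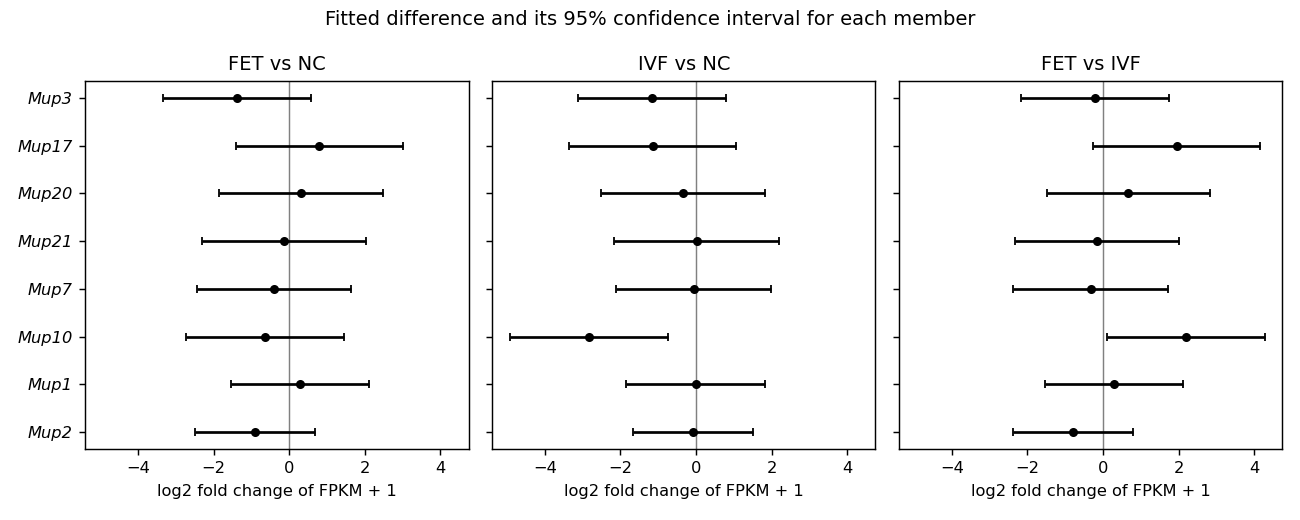
The log2 fold change of FPKM + 1 (horizontal axis) with its 95% confidence interval is drawn for the 8 members in the 3 comparisons. The interval excludes 0 for Mup10 in IVF against NC mice (-4.93 to -0.74) and in FET against IVF mice (0.10 to 4.29), and neither passed the adjusted threshold.

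Since near-identical copies share reads, the members were also summed. The summed FPKM of the 8 members was 1519, 3615 and 4137 in NC mice, 740.3, 2187 and 2115 in IVF mice, and 1508, 3462 and 1320 in FET mice. The group means were 3090 ± 1386, 1681 ± 815 and 2097 ± 1186 (SD, n = 3), and the groups overlapped. The libraries' protein-coding shares differed beside these sums. IVF mouse 2 and FET mouse 4, with the lowest sums, had the lowest shares (4.36% and 4.41%), whereas IVF mouse 4, with the highest share (29.3%), had a sum of 2115. The part of the share in the sums was not tested. As a percentage of the FPKM of nuclear protein-coding genes, the members took 1.62%, 2.62% and 2.64% in NC mice, 1.89%, 2.001% and 0.918% in IVF mice, and 1.65%, 2.68% and 2.91% in FET mice. On this scale FET mouse 4 was the highest of all mice. The mean was 0.12 percentage points higher in FET than in NC mice, and it fell by 0.69 points from NC to IVF mice, beside SDs of 0.583 in NC, 0.596 in IVF and 0.669 in FET mice, and the groups overlapped. The sign of the former rested on single mice, as it was -0.217 without NC mouse 1, -0.128 without FET mouse 4 and -0.013 without FET mouse 3. The latter was -0.347 without IVF mouse 4. The sum over the 5 near-identical members, Mup1, Mup2, Mup7, Mup10 and Mup17, was 383.8, 246.0 and 534.6 FPKM in NC mice, 167.7, 201.7 and 224.8 in IVF mice, and 197.8, 1583 and 516.3 in FET mice. Every IVF mouse was below every NC mouse, as for 5.46% of all genes tested, and the FET mice overlapped both groups. With the other Mup genes of the table added, this pool was at most 470.7 in IVF mice and at least 502.6 in NC mice. As a percentage of protein-coding FPKM the 5 members took 0.409%, 0.178% and 0.341% in NC mice and 0.428%, 0.184% and 0.0976% in IVF mice, so that the groups overlapped on that scale. No test was made of these sums, because the members were chosen with results known.

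**Figure D4:**
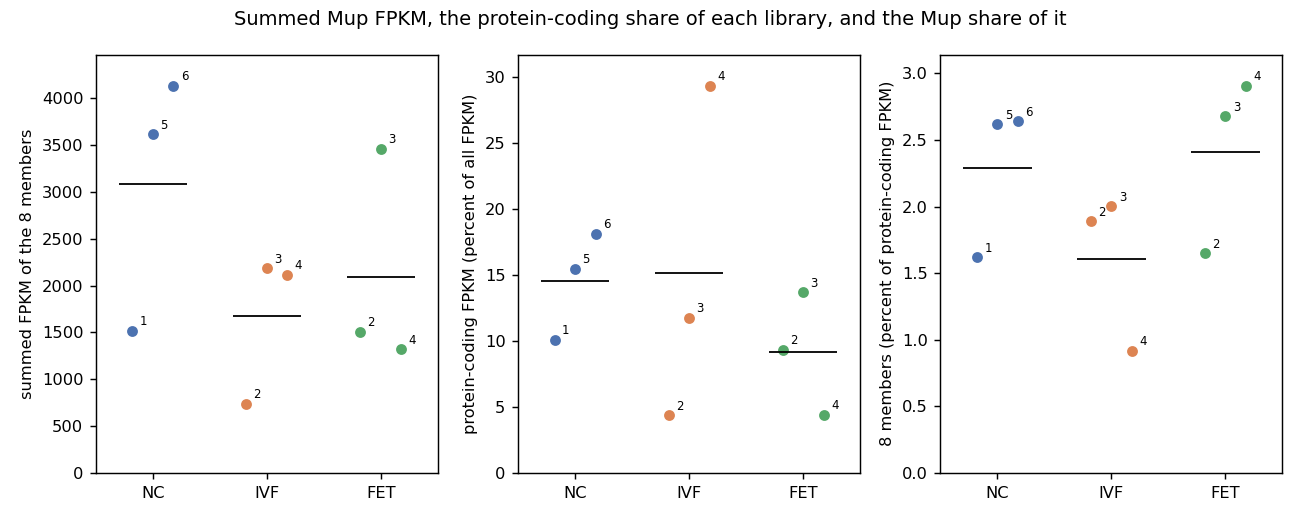
The panels plot, for each mouse (numbered) and with the group mean as a line, the summed FPKM of the 8 members, the percentage of all FPKM in nuclear protein-coding genes, and the percentage of that protein-coding FPKM in the 8 members. FET mouse 4 is among the lowest in the first panel (1320) and the highest in the last (2.91%).

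The make-up of the sum does not depend on the scaling of a library. Mup3 made up 57.9%, 75.9% and 73.8% of it in NC mice, 52.4%, 56.1% and 66.3% in IVF mice, and 49.2%, 33.9% and 37.4% in FET mice. Every FET mouse was thus below every NC and IVF mouse. With all 22 protein-coding Mup genes in the sum, the FET values were 41.8%, 27.2% and 30.1%, and all others were 44.7% or more. FET mouse 2 was the closest to the other groups, next to IVF mouse 2 in the first sum and to NC mouse 1 in the other. This separation was noticed among 8 members after the values had been seen, and it is given without a test.

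The members that made up the rest of the sum differed between FET mice. Without Mup3, the sum was 639.5, 870.8 and 1082 FPKM in NC mice, 352.4, 959.6 and 712.6 in IVF mice, and 766.2, 2290 and 826.7 in FET mice. As a percentage of protein-coding FPKM, this sum was 0.839%, 1.77% and 1.82% in FET mice, 0.682%, 0.630% and 0.691% in NC mice, and 0.900%, 0.878% and 0.309% in IVF mice, so that the FET mice were above the NC mice and overlapped the IVF mice. Mup3 itself was, on this scale, at 0.812%, 0.907% and 1.09% in FET mice, within the 0.609% to 1.12% of IVF mice, and at 0.938%, 1.99% and 1.95% in NC mice. Mup17 made up 42.2% and 33.9% of the sum in FET mice 3 and 4 but 7.75% in FET mouse 2, against 4.14% to 16.4% in NC and IVF mice. Mup20 made up 32.1% of the sum in FET mouse 2, and 15.1% and 15.5% in FET mice 3 and 4. In NC mice Mup20 made up 11.01%, 14.5% and 7.28%, all below the FET mice, and in IVF mice 16.1%, 29.7% and 7.75%. Of the 8 members, only Mup3 and Mup20 had shares that did not overlap between FET and NC mice, and only Mup3 between FET and IVF mice. With all 22 protein-coding Mup genes in the sum, Mup20 made up 27.3%, 12.1% and 12.5% in FET mice. It made up 13.5% in NC mouse 5, so its shares in FET and NC mice overlapped in that sum. For FPKM over all genes tested, 19.0% did not overlap between FET and NC mice and 3.83% between FET and IVF mice. FET libraries had the lowest estimated depth, and its part in the separation was not tested. The estimated number of Mup3 fragments was 1419 to 3240 in FET mice.

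**Figure D5:**
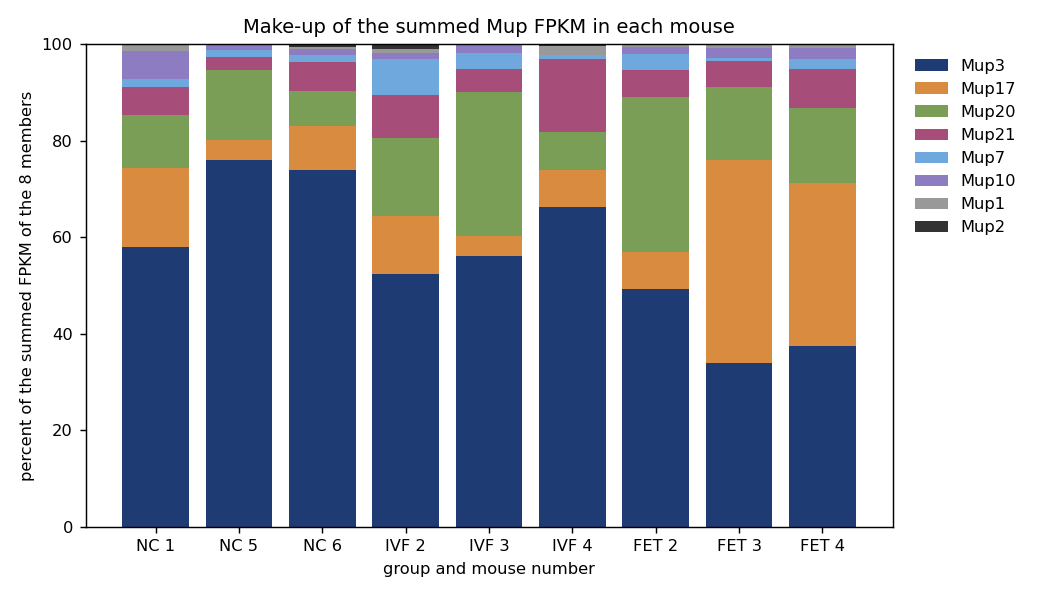
Each bar is 1 mouse and shows the percentage of the summed FPKM of the 8 members that each member contributed. The Mup3 part is 52.4% or more in NC and IVF mice and 49.2% or less in FET mice, and Mup17 is large in FET mice 3 and 4.

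Of the 14 other protein-coding Mup genes, 11 had a mean FPKM of at least 1, and none changed by limma in any comparison. Mup4, Mup5 and Mup6, described mainly in glands outside the liver, were at or below 0.505 in every mouse, and Mup4 and Mup6 were at 0 in all 9. These 3 genes have sequence of their own, since 98.7% or more of their windows of 100 bases occur in no other gene. The summed FPKM of the 14 genes was 447.7, 256.6 and 309.8 in NC mice, 83.7, 260.0 and 245.9 in IVF mice and 266.1, 849.0 and 319.7 in FET mice. FET mouse 3 thus stood out here as it did for Mup17.

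Mup11 was the highest of the 14, at an FPKM of 102, 58.3 and 56.5 in NC mice, 32.9, 93.5 and 2.25 in IVF mice and 89.4, 483 and 157 in FET mice. Its log2 fold change was 3.12 in FET against IVF mice (SE 1.14, limma adjusted p = 0.877). Mup16 was at 24.3, 16.4 and 20.2 in NC mice, 8.22, 9.36 and 8.16 in IVF mice and 27.2, 88.7 and 29.9 in FET mice, so that the 3 groups did not overlap. Its adjusted limma p was 0.706 in FET against NC mice and 1 in both other comparisons. It was the only one of the 11 genes tested without overlap in FET against NC mice and in FET against IVF mice, beside 19.0% and 3.83% of all genes. In IVF against NC mice, Mup15, Mup16 and Mup19 were lower without overlap in FPKM (-1.51, -1.14 and -1.96, with limma adjusted p of 1, 1 and 0.69), beside 5.46% of all genes. As a percentage of protein-coding FPKM, the IVF and NC mice overlapped for each of these genes. Only 2.7%, 19.9% and 0.0% of their windows of 100 bases occur in no other gene, so their values may share fragments. Mup22 was at 5.68, 57.9 and 77.8 in NC mice, 0.924, 49.3 and 0.321 in IVF mice and 34.0, 0.522 and 0 in FET mice. Every group held mice at 34.0 or more and mice at 5.68 or less, and its log2 fold change in FET against NC mice was -3.06 (limma adjusted p = 0.25). In no Mup22 transcript window of 100 bases was the sequence its own, so its fragments fit other Mup genes as well.

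Mup13 and Mup14 had mean FPKM of 47.2 and 40.8 over all mice, Mup9 31.0, Mup12 19.5, Mup15 11.6 and Mup18 10.8, and Mup19 and Mup8 lay at 5.20 and 1.19. In FET against NC mice, Mup15 was at -1.68 and Mup18 at 0.96, with limma adjusted p of 0.423 and 0.695. Over the 11 genes tested, the median log2 fold change was 0.02 in FET against NC mice, -1.06 in IVF against NC mice and 0.70 in FET against IVF mice. The medians of all genes were -0.46, -0.25 and -0.20. In each of the 11 genes, at most 22.5% of the windows of 100 bases occur in no other gene, so they may share fragments and are not separate observations. Of the 27 pseudogenes, 13 were at 0 in all mice and 4 had a mean of at least 1. Among these, Mup-ps16 had a log2 fold change of -2.64 in FET against NC mice, with a limma adjusted p of 0.0505, which did not pass, and Mup-ps14 was at -2.08 (limma adjusted p = 0.101). Both were lower without overlap in FPKM, as were 17.1% of all genes. As a percentage of protein-coding FPKM, Mup-ps14 was higher in FET mouse 4 than in NC mouse 5. The mean FPKM of both was under 1 in IVF and FET mice, so they passed the filter only through the NC mice. Mup-ps16 was at a mean of 8.73 in NC mice and 0.311 in FET mice. Their tests against NC mice are therefore no independent support. FET libraries had the lowest estimated depth, and its part in these low values was not tested. In IVF against NC mice, Mup-ps12, Mup-ps14 and Mup-ps16 were lower without overlap, at -2.09, -1.98 and -2.18, with limma adjusted p of 0.454, 0.411 and 0.398, beside 5.46% of all genes. Mup-ps19 overlapped between the groups in each comparison.

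The pathway known to drive the family was measured through a list of 9 genes from the growth hormone receptor to STAT5 and its targets, of which 7 were tested. None changed by limma in any comparison. Negative values were found for 6 of the 7 in FET against NC mice, 3 in IVF against NC mice and 6 in FET against IVF mice, beside 74.3%, 68.8% and 65.4% of all genes. Igf1, the circulating growth factor induced by growth hormone, had an FPKM of 40.1, 66.9 and 53.7 in NC mice, 15.7, 87.7 and 166.5 in IVF mice and 95.4, 84.7 and 7.84 in FET mice. Its groups overlapped, and its log2 fold change was -0.36 in FET against NC mice. Ghr, the growth hormone receptor, was at 12.2 ± 5.32 in NC mice, 8.21 ± 3.83 in IVF mice and 6.37 ± 3.15 in FET mice (SD, n = 3), a log2 fold change of -0.82 in FET against NC mice (limma adjusted p = 0.732). Socs2, a STAT5 target that restrains growth hormone signalling, is named after its values were seen. Its FPKM was 0.882, 0.229 and 0.0796 in NC mice, 0.551, 11.9 and 17.7 in IVF mice and 0.467, 0.337 and 0.479 in FET mice, so that IVF mice 3 and 4 stood apart. Its log2 fold change was 2.41 in IVF against NC mice, where the unadjusted limma p was 0.000692 and the adjusted p was 0.334. It was -2.34 in FET against IVF mice, where the limma adjusted p was 0.333, so neither passed. Socs2 passed the filter only through the IVF mice, since its mean FPKM was 0.397 in NC mice and 0.427 in FET mice. Its p-values against IVF mice are therefore no independent support. For Socs2, every FET mouse was below every IVF mouse, as for 2.56% of all genes. The margin was small, at 0.479 in FET mouse 4 and 0.551 in IVF mouse 2.

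Hormone receptors and hepatocyte transcription factors did not change by limma either. Of the receptors, 3 of 4 were tested, and Nr3c1, the glucocorticoid receptor, was at -0.35 in FET against NC mice. Of the transcription factors, 7 of 8 were tested, and all 7 had negative values in FET against NC mice, with a median of -0.90, beside -0.46 for all genes. Hnf4a, a main regulator of hepatocyte genes, was at -0.77 and Cebpb at -0.90 (limma adjusted p of 0.789 and 0.738).

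Genes known to be higher in male liver, as the Mups are, gave 15 tested of 16 and no call in any comparison. Their median log2 fold change was -0.59 in FET against NC mice, -0.12 in IVF against NC mice and -0.36 in FET against IVF mice, beside -0.46, -0.25 and -0.20 for all genes. The most abundant of them, Selenbp2, was at 216 ± 90.0 in NC mice, 487 ± 488 in IVF mice and 218 ± 91.4 in FET mice (FPKM, SD, n = 3), and Serpina4-ps1 was at 141 ± 29.4, 298 ± 250 and 206 ± 140. Of the 15 genes, 12 had a negative fold change in FET against NC mice, 8 in IVF against NC mice and 12 in FET against IVF mice, beside 74.3%, 68.8% and 65.4% of all genes. Both Cyp4a12 genes, named here after their values were seen, were lower in every FET mouse than in every NC mouse, as were 17.1% of all genes. Cyp4a12a was at 127.9, 125.9 and 223.9 FPKM in NC mice, 31.8, 82.9 and 119.8 in IVF mice, and 29.3, 94.2 and 50.9 in FET mice (log2 fold change -1.54 in FET against NC mice, limma adjusted p = 0.588). For Cyp4a12a, every IVF mouse was also below every NC mouse, as for 5.46% of all genes. As a percentage of protein-coding FPKM, however, Cyp4a12a was higher in FET mouse 4 than in NC mouse 5, so FET and NC mice overlapped on that scale. Cyp4a12b was at 14.3, 18.4 and 37.4 in NC mice, at 5.24, 12.1 and 24.9 in IVF mice, and at 13.0 and 4.89 in FET mice 3 and 4, and it was listed at 0 in FET mouse 2 (limma adjusted p = 0.278 in FET against NC mice). Gstp1 of the same list, also named after its values were seen, went the other way. Its FPKM was 29.7, 120.0 and 96.5 in NC mice and 146.5, 264.3 and 185.0 in FET mice. Every FET mouse was thus above every NC mouse, as for 1.98% of all genes (log2 fold change 1.44, limma adjusted p = 0.629). Of 16 genes known to be higher in female liver, only 2 had a mean FPKM of at least 1, and neither passed the test. Cyp2a4 was at 1.56, 5.83 and 5.80 in NC mice and 0.270, 0.384 and 4.25 in IVF mice, and it was listed at 0 in every FET mouse (limma adjusted p = 0.0733 in FET against NC mice). Cyp2b9 was at 0.886, 8.08 and 2.37 in NC mice and at 0.980 in IVF mouse 2, and it was listed at 0 in IVF mice 3 and 4 and in every FET mouse (limma adjusted p = 0.147 in FET against NC mice). Cyp2b9 passed the filter only through the NC mice, and Cyp2a4 only through the NC and IVF mice. Their tests against FET mice are therefore no independent support. FET libraries had the lowest estimated depth, and its part in the values of 0 was not tested.

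Other lipocalins and other secreted hepatocyte proteins were measured as neighbours in function. Of the lipocalins 8 of 11 were tested, with no call by limma and a median of -0.42 on the log2 scale in FET against NC mice, beside -0.46 for all genes. Orm1, an acute-phase plasma protein, was at 686 ± 117.3 in NC mice, 847 ± 803 in IVF mice and 684 ± 514 in FET mice, and Ambp, the precursor of a plasma lipocalin, at 537 ± 189, 503 ± 405 and 415 ± 279 (FPKM, SD, n = 3). All 20 secreted proteins were tested with no call, and 17 were negative in FET against NC mice, with a median of -0.66, beside 74.3% and -0.46 for all genes. Alb, which encodes serum albumin, was at -1.37 there (limma adjusted p = 0.52), the same value as Mup3, and Apoa2, an apolipoprotein of high-density lipoprotein, was at -0.97. Summed Kupffer cell markers were 76.6 in FET mouse 2 and between 3.58 and 27.7 in the other mice, and their part in the Mup values was not tested.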

How the data were processed

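Liver RNA of 9 mice was measured by RNA sequencing. The authors deposited FPKM values per gene, with no counts. The submitters' processing notes name FastQC 0.11.5, STAR 2.5.3a, StringTie 1.3.1c and DESeq2 1.16.1 without roles, and the build, annotation, strandedness and treatment of fragments that fit several genes are not given in the sources used here. Of the 55335 identifiers, 55154 matched GENCODE vM21, which gave symbols, positions and transcripts.

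Groups came from the labels. The 6755 genes whose mean FPKM reached 1 were tested as log2(FPKM + 1) with limma 3.58.1 in R 4.3.3, with 1 model over the 3 groups, variance moderated with a trend, two-sided, and a threshold of 0.05 on Benjamini-Hochberg adjusted p. The test was checked on simulated data. The p-values measure the spread between single mice. Depth was estimated in Python 3.11.15 from steps of up to 8 fragments in low FPKM values, on which between 34.7% and 47.6% of them lay within 2%. Depths and fragment numbers are estimates and carry no interval.

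The members and lists were chosen with earlier results of these data known. Named were the 8 members, other Mup genes that reached the same mean, and from each list the genes called and the 2 tested genes of highest mean FPKM. Mup4, Mup5, Mup6, the pseudogenes and Mup22's pattern were named after their values were seen. Also named were the 5 protein-coding genes, of mean FPKM at least 10, most correlated with the summed members. From these, 1 listed gene was left out of the text.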

Additional observations from a re-analysis of the deposited data

How the results depend on the processing

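None of the 8 members passed the adjusted threshold under any alternative, and the lowest adjusted p by limma was 0.331, for Mup3 in FET against NC mice with median-ratio scaling. Genes called in FET against NC mice went from 16 to 0 with no filter (2618 unadjusted) or with a fit of the 2 groups only (1031), to 6 within sheet numbers 67 to 76, where NC mouse 1 is the only NC mouse and is assumed to vary like the other groups, and to between 1 and 83 when each mouse was left out, lowest without FET mouse 3 and highest without NC mouse 1. In IVF against NC mice the 4 calls became 0 with a pseudocount of 0.1 (179 unadjusted), no filter (1580), median-ratio scaling (386), rescaling to protein-coding genes (367) or the 2 groups only (318), 2 within the sheet numbers, and between 0 and 24 with each mouse left out. In FET against IVF mice the 6 calls became 0 with no filter (829), the 2 groups only (207) or within the sheet numbers (193), 2 with the mouse number as a replicate block, and between 0 and 10 with each mouse left out. The causes were not tested. The block changed no call of a member. Same-numbered mice had residual correlations of -0.131, 0.0215 and -0.255, beside -0.143 to 0.292 for the other pairs. With 3 mice per group, these values cannot decide whether the numbers pair the mice.

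Several members changed sign. In FET against NC mice, Mup21 was at 0.37, 0.50 and 0.41 and Mup7 at 0.10, 0.24 and 0.31 with median-ratio scaling, protein-coding rescaling and the sheet numbers, and Mup1 at -0.69 within the sheet numbers. In IVF against NC mice, these 3 settings gave 0.40, 0.31 and 0.63 for Mup7 and 0.32, 0.23 and 0.69 for Mup2, and Mup2 was at 0.011 with a pseudocount of 0.1. Median-ratio scaling and protein-coding rescaling gave 0.36 and 0.26 for Mup1, and median-ratio scaling and the sheet numbers 0.095 and 0.48 for Mup20. Rescaling gave 0.13 for Mup21 and 0.080 for Mup3 in FET against IVF mice. Leaving out each mouse gave, in FET against NC mice, -0.45 to 0.32 for Mup21, -0.092 to 0.75 for Mup20, -0.33 to 0.77 for Mup1, -1.69 to 0.30 for Mup2 and -0.088 to 1.73 for Mup17. In IVF against NC mice it gave -0.62 to 0.52 for Mup21, -0.48 to 0.59 for Mup7, -1.09 to 0.13 for Mup20, -0.97 to 0.54 for Mup1 and -0.89 to 1.10 for Mup2. In FET against IVF mice it gave -0.66 to 0.48 for Mup21, -0.80 to 0.13 for Mup3, -0.98 to 0.087 for Mup7 and -0.25 to 1.25 for Mup1. Mup10 and Mup17 kept their sign in each setting in IVF against NC and FET against IVF mice, and Mup3 in both comparisons with NC mice, at -0.86 and -0.73 with both scalings, -0.22 within the sheet numbers, where NC mouse 1 is the only NC mouse, and -1.94 to -1.04 with a mouse left out in FET against NC mice, and at -0.71, -0.81, -0.0090 and -1.73 to -0.57 in IVF against NC mice. The sum of the members moved from -993.7 FPKM in FET against NC mice to -51.8 with median-ratio scaling and 120.7 with protein-coding rescaling, within 1 SD. With each mouse left out it lay between -1779 (without NC mouse 1) and -470.5 (without NC mouse 6). The sum moved in IVF against NC mice from -1410 to -615.2 and -695.1 with these scalings and lay between -2195 (without NC mouse 1) and -886.5 (without NC mouse 6), and in FET against IVF mice it moved from 416 to -266.8 without FET mouse 3 and -54.2 without IVF mouse 2. Mup10 in IVF against NC mice was at -2.18 with median-ratio scaling and -2.22 with protein-coding rescaling, with unadjusted limma p of 0.0737 and 0.0681. At the estimated depth, Mup10 in IVF mouse 4 and Mup2 in FET mouse 2 rest on about 2 and 1 fragments. Fragments shared between copies limit the values of single near-identical members.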

Other observations

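Some near-identical Mup genes were high in the same mice across the 3 groups. Mup1 was at an FPKM of 20.8 in NC mouse 1, 40.9 in IVF mouse 4 and 25.3 in FET mouse 3, and at or below 12.3 in the other 6 mice. Mup9 was highest in the same 3 mice, at 64.1, 80.5 and 79.3, and at or below 20.9 elsewhere. Mup7 was at 25.1, 15.3 and 22.4 in them, the 3 lowest values of that gene. Mup22 was at 5.68, 0.321 and 0.522 in those mice, and also low in IVF mouse 2 and FET mouse 4. Each group thus held 1 such mouse. These mice were picked out by their values, and no test was made.

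The protein-coding genes outside the family that followed the summed members most closely over the 9 mice were Lgals9 (Pearson r = 0.951), Ftcd (0.913), Edf1 (0.912), Gls2 (0.909) and Ifitm3 (0.909), the first 5 of 1033 genes compared. The values of all genes share each library's protein-coding share, and the coefficients are given as a description.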
